A study of Mus musculus with 24 samples.

Results

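The fatty acid elongases and desaturases described here were the 10 genes Elovl1, Elovl2, Elovl3, Elovl5, Elovl6, Elovl7, Fads1, Fads2, Fads3 and Fads6, picked by gene name from the 54532 genes of the count table. All 10 were present in the table. The choice took account of measured values in one respect, since Elovl7 was picked knowing that it is almost absent from control livers, so its difference from controls is described without a test. RNA-seq covered 24 livers from male mice after a 24 h fast, 4 for each of 6 genotypes, to ask what the loss of the small GTPase Rab30 does to the fasting liver with and without mitochondrial oxidation of long chain fatty acids. By the study's methods, mice of fasting experiments were 8 to 10 weeks old and were killed at a fixed time in the afternoon. Rab30KO mice lack exon 4 of Rab30 in every tissue, and Rab30 Ctrl mice are their wildtype littermates. Rab30L-/- mice, Cpt2L-/- mice and double knockouts (DKO) carry floxed Rab30, floxed Cpt2 or both, together with an albumin-Cre transgene that is active in hepatocytes, so that other liver cells keep both genes. The ff;ff group, littermates of the DKO mice, has the floxed alleles of both genes but no Cre. It also served as the control for Rab30L-/- and Cpt2L-/- mice, which were not their littermates. Cpt2 encodes carnitine palmitoyltransferase 2, the inner mitochondrial membrane enzyme that long chain fatty acids need to enter β-oxidation.

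Fatty acids are lengthened in the endoplasmic reticulum by a cycle whose first and rate-limiting step, condensation with malonyl-CoA, is carried out by an Elovl protein. A ketoreductase (Hsd17b12), a dehydratase (the Hacd proteins) and an enoyl reductase (Tecr) complete each turn. Elovl5 and Elovl2 lengthen polyunsaturated fatty acids, Elovl6 turns palmitate into stearate, and Elovl1, Elovl3 and Elovl7 act mainly on saturated and monounsaturated chains. Fads2 and Fads1 are the delta-6 and delta-5 desaturases, which alternate with Elovl5 and Elovl2 to make arachidonic acid and docosahexaenoic acid from dietary precursors. The liver is a main site of this pathway. Fads3 acts on sphingoid bases, and the role of Fads6 is poorly known.

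The members lie on 6 chromosomes of GRCm38. Fads3 (19, 10041548 to 10059671), Fads2 (19, 10064164 to 10101503) and Fads1 (19, 10182888 to 10196870) form 1 cluster, and Elovl3 is elsewhere on the same chromosome (46131897 to 46135307). Elovl2 (13, 41182381 to 41220405) and Elovl7 (13, 108214404 to 108285683) share chromosome 13. Elovl5 is on chromosome 9 (77917364 to 77984519), Elovl6 on 3 (129532355 to 129638495) and Fads6 on 11 (115279622 to 115297663). Elovl1 lies on chromosome 4 (118428093 to 118432953) and is 10.5 Mb from the targeted gene Cpt2. Exons of Elovl1 share 53 bases with Cdc20 and exons of Elovl6 share 34 bases with Gm35986, both on the opposite strand. Whether the counting used strand is not given in the sources used here, so reads in these stretches cannot be assigned with certainty.

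The 250 bases before the RefSeq start are shown for Elovl1, Elovl5 and Elovl7, the elongases whose RNA was higher in Cpt2L-/- livers. RefSeq windows on GRCm38.p6 matched 8 of the 10 members, all but Elovl3 and Fads1. RefSeq lists 2 windows for Elovl1, and the one further upstream is shown. Capitals mark any CACGTG (the E-box bound by basic helix-loop-helix factors), CCAAT box (CCAAT, or ATTGG when it lies on the other strand), TGACGTCA (the cyclic AMP response element), TCACNCCAC (the sterol response element) or the nuclear receptor motif DR1, each searched on both strands.

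Elovl1 (chr4:118427843-118428092, plus strand): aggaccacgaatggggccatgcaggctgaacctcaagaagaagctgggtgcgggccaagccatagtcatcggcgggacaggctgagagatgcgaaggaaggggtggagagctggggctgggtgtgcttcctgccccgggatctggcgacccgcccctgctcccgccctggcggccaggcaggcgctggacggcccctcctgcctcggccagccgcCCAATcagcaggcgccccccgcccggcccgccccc
Elovl5 (chr9:77917115-77917364, plus strand): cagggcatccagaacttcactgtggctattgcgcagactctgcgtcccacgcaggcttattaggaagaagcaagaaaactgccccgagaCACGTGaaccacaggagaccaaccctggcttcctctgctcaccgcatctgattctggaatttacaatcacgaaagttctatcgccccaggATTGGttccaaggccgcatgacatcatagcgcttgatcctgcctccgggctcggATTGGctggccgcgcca
Elovl7 (chr13:108214154-108214403, plus strand): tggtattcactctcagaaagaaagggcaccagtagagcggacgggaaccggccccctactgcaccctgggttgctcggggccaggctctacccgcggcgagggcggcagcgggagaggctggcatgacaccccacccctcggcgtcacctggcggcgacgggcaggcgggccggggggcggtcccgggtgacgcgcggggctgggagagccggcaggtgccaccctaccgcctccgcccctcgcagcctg

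The Elovl5 window held an E-box 161 bases before the start and CCAAT boxes at 71 and 17 bases. The Elovl1 window shown held a CCAAT box at 35 bases, its other window (chr4:118429451-118429700) held none of the marked motifs, and the Elovl7 window held none of the marked motifs. Of 32851 promoter windows of the same length, 6.02% held the E-box, 33.8% a CCAAT box, 1.55% TGACGTCA, 1.05% TCACNCCAC and 0.0335% DR1. GC boxes (GGGCGG) and TATA boxes (TATAAA) were searched but not marked. GC boxes lay in both Elovl1 windows and in the Elovl7 window, beside 32.7% of all windows. The matches are given as a description.

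Library totals ranged from 11801027 to 24497738 counts. The deepest library, Rab30L-/- replicate 3, was also the highest of its group for Elovl6, Fads1, Fads2, Fads3 and Fads6, and results that rest on it are given with and without it. Counts over the whole Rab30 and Cpt2 genes include exons that the deletions leave in place and so check the labels only in part, and groups are named by their labels throughout. In counts per 1000000 after TMM scaling (CPM), Rab30 was at 146 ± 28.6 in libraries labelled Cpt2L-/- and 164 ± 58.8 in those labelled DKO, against 37.2 ± 9.75 in ff;ff and 17.1 ± 7.41 in Rab30L-/- (SD, n = 4 each). Cpt2 was at 126 ± 29.1 CPM in Cpt2L-/- and 107 ± 12.9 in DKO, against 134 ± 5.52 in ff;ff and 219 ± 42.0 in Rab30L-/- (SD, n = 4 each). Rab30 was lower by estimate in Rab30L-/- than in ff;ff without passing (log2 fold change -1.10, SE 0.29, edgeR adjusted p = 0.174), and it was higher in DKO than in ff;ff although DKO livers are targeted for it (2.13, SE 0.28, edgeR adjusted p = 0.000552). Cpt2 was lower in DKO than in Rab30L-/- (-1.07, SE 0.15, edgeR adjusted p = 0.000449) and at -0.07 (SE 0.16, edgeR adjusted p = 0.788) in Cpt2L-/- against ff;ff. The 5 hepatocyte markers Alb, Apoa1, Ttr, Cps1 and Tat were expressed in every library, and their summed level was 43434 to 51641 CPM in Cpt2L-/-, 58998 to 71030 in DKO and 92900 to 126830 in ff;ff. Of these 5 markers, 3 were lower in Cpt2L-/- than in ff;ff and 2 were lower in DKO than in Rab30L-/-. The summed level of 8 Kupffer cell markers was 150 to 213 CPM in Cpt2L-/-, 141 to 171 in DKO, 188 to 336 in ff;ff and 238 to 672 in Rab30L-/-, with 3 of 8 lower in the first of these comparisons and 7 of 8 in the second. Of 8 stellate markers 0 were called in either comparison. Of 6 endothelial markers 1 was lower in Cpt2L-/- than in ff;ff and 1 was higher in DKO than in Rab30L-/-, where their summed level was 176 to 240 CPM against 146 to 176. Of the bile duct markers tested, 1 of 4 and 1 of 3 were lower in these comparisons. Among all genes 11.9% were lower and 11.9% higher in Cpt2L-/- against ff;ff. In DKO against Rab30L-/- 15.8% were lower and 14.9% higher. The part of these shifts in the values of the elongases and desaturases was not tested. In whole liver, fewer cells of a type and less RNA per cell cannot be told apart.

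Levels were compared between genes per length, as FPKM, which divides the count by gene length and library total. The fasted ff;ff liver made mostly the RNA of the polyunsaturated fatty acid pathway. Fads2 was at 232 ± 38.5 FPKM, Elovl2 at 186 ± 44.5, Elovl5 at 96.2 ± 27.3 and Fads1 at 78.8 ± 10.1 (SD, n = 4 each). Elovl3, at 62.2 ± 46.7 FPKM, did not differ from Elovl5 or Fads1 beyond its spread. Fads6 followed at 26.5 ± 7.57 and Elovl1 at 8.47 ± 1.52 FPKM. Elovl6 at 4.40 ± 0.623 and Fads3 at 4.20 ± 1.42 FPKM did not differ beyond their spread. Elovl7 was the lowest, at 0.0801 ± 0.0475 FPKM. The order of the upper members depends on the gene length used, since the deposited table gives Fads2 a length of 1508 bases where its annotated exons cover 3295. Over exonic bases Fads2 would be at 106 ± 17.6 FPKM, below Elovl2, Fads1 at 56.6 ± 7.26 and Elovl3 at 47.0 ± 35.3 (SD, n = 4 each). In Cpt2L-/- livers Elovl5, at 302 ± 9.26 FPKM, and Elovl2, at 267 ± 23.7 FPKM, were the highest of the elongases, and their libraries overlapped.

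**Figure D1:**
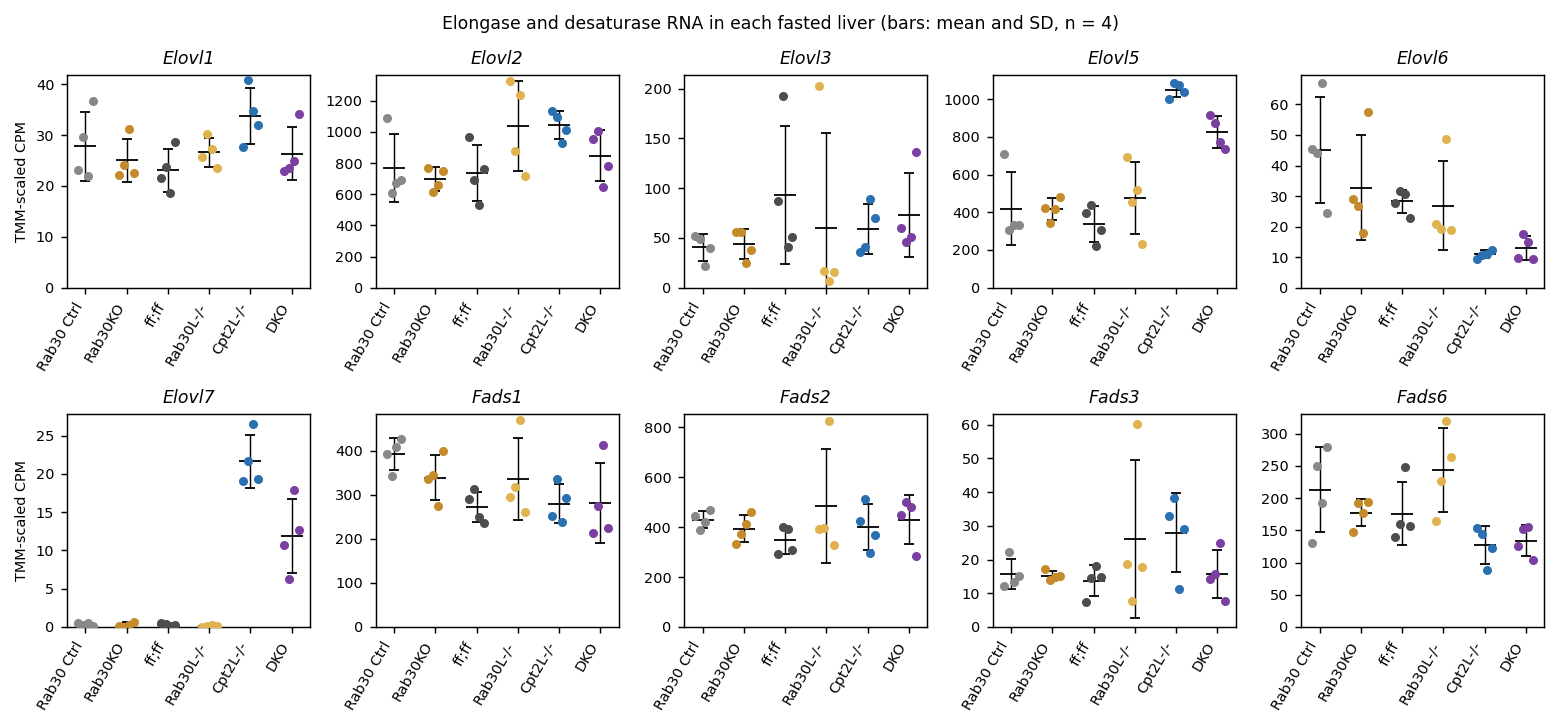
Level of each member in each of 24 livers, in CPM after TMM scaling on linear axes that start at 0, by genotype group. Points are libraries and bars the mean and SD of 4. Elovl5 lies at 1002 to 1085 CPM in Cpt2L-/- and 220 to 436 in ff;ff, Elovl6 is lower in Cpt2L-/- and DKO than in ff;ff, and Elovl7 is near 0 outside Cpt2L-/- and DKO.

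Loss of Cpt2 was examined in 3 comparisons, of which DKO against ff;ff differs in Rab30 as well as Cpt2. In Cpt2L-/- against ff;ff and DKO against Rab30L-/-, Cpt2 is the only gene whose deletion differs by design. The former also differs in Cre, in floxed Rab30 alleles and in litters. In the latter the groups are not given as littermates. These differences cannot be told apart from loss of Cpt2. Cpt2L-/- and DKO were each compared with ff;ff and so share their controls, whereas DKO against Rab30L-/- shares no library with Cpt2L-/- against ff;ff. A gene was called when edgeR's quasi-likelihood test gave an adjusted p under 0.05 and the change was at least 1.2-fold. In Cpt2L-/- against ff;ff, 3 of the 9 members other than Elovl7 were called, namely Elovl5 and Elovl1, which were higher, and Elovl6, which was lower. Among all 13270 genes tested 23.8% were called (11.9% higher, 11.9% lower), so the share among the members was near the background. In DKO against ff;ff, 2 of 9 were called (Elovl5 higher, Elovl6 lower), beside 16.1% of 13389 genes (7.87% higher, 8.24% lower). In DKO against Rab30L-/-, 3 of 9 were called (Elovl5 higher, Elovl6 and Fads6 lower), beside 30.7% of 13292 genes (14.9% higher, 15.8% lower). The median log2 fold change of the 9 members was 0.22, 0.18 and -0.27 in these comparisons, with that of all genes tested at -0.0035, -0.018 and -0.012.

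Among Fads2, Elovl5, Fads1 and Elovl2, Elovl5 had the largest change on loss of Cpt2. It was at 394, 436, 220 and 304 CPM in the ff;ff livers, and at 1002, 1085, 1074 and 1037 CPM in the Cpt2L-/- livers. The DKO livers had 917, 875, 770 and 736 CPM. The Rab30L-/- livers, at 693, 454, 520 and 234 CPM, spread more widely than any of these groups. Every Cpt2L-/- and DKO library was above every ff;ff and Rab30L-/- library, and the Cpt2L-/- libraries lay within a narrow band. The log2 fold change was 1.65 in Cpt2L-/- against ff;ff (SE 0.20, edgeR adjusted p = 8.5e-05), 1.28 in DKO against ff;ff (SE 0.21, edgeR adjusted p = 0.00175) and 0.78 in DKO against Rab30L-/- (SE 0.27, edgeR adjusted p = 0.0485). The first of these held with each library left out. The change in DKO against Rab30L-/- did not pass without Rab30L-/- replicate 2, 3 or 4 or without any one of the 4 DKO libraries. Adjusted p then ran from 0.0591 to 0.102 and log2 fold changes from 0.55 to 0.85. With no filter on low counts this change did not pass either (edgeR adjusted p = 0.0731).

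Elovl2, which acts after Elovl5 on longer polyunsaturated chains, was at 965, 694, 529 and 762 CPM in ff;ff and 1136, 1098, 931 and 1012 in Cpt2L-/-. The groups overlapped, and the log2 fold change of 0.52 (SE 0.18) missed the threshold with an edgeR adjusted p of 0.0587. DESeq2 gave 0.033 and limma-voom 0.0054 for the same comparison, and edgeR gave 0.0129 without ff;ff replicate 1 and 0.0232 with no filter on low counts. In DKO livers Elovl2 was at 952, 1004, 646 and 781 CPM. These values lay inside the combined range of ff;ff and Rab30L-/-, and the log2 fold change was 0.20 (SE 0.21) against ff;ff and -0.31 (SE 0.22) against Rab30L-/-.

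The desaturases of the same pathway were close to their control levels. Fads2 ranged from 295 to 512 CPM in Cpt2L-/- and from 293 to 400 in ff;ff, with a log2 fold change of 0.22 (SE 0.19, edgeR adjusted p = 0.447). Fads1 ranged from 238 to 335 CPM in Cpt2L-/- and from 236 to 312 in ff;ff, with a log2 fold change of 0.05 (SE 0.16, edgeR adjusted p = 0.845). Neither was called in any comparison, and the groups overlapped in all of them.

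Elovl6, the elongase of newly made palmitate, went the other way. It was at 27.7, 31.5, 30.7 and 22.9 CPM in ff;ff, at 9.38, 10.8, 11.0 and 12.4 in Cpt2L-/-, and at 9.88, 17.6, 14.9 and 9.38 in DKO. Rab30L-/- livers had 20.9, 19.2, 48.5 and 19.0 CPM. No library of the Cpt2-deleted groups reached the lowest ff;ff or Rab30L-/- library. Elovl6 fell by 1.35 on the log2 scale in Cpt2L-/- against ff;ff (SE 0.16, edgeR adjusted p = 7.0e-05) and by 1.13 in DKO against ff;ff (SE 0.22, edgeR adjusted p = 0.00439), calls that held with each library left out. In DKO against Rab30L-/- it fell by 1.08 (SE 0.35, edgeR adjusted p = 0.0430). That last value rests in part on Rab30L-/- replicate 3, without which the log2 fold change was -0.64 (edgeR adjusted p = 0.0581). The call was also lost without DKO replicate 1, 3 or 4, with adjusted p of 0.114, 0.0771 and 0.112. With no filter on low counts Elovl6 did not pass either (edgeR adjusted p = 0.165).

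**Figure D2:**
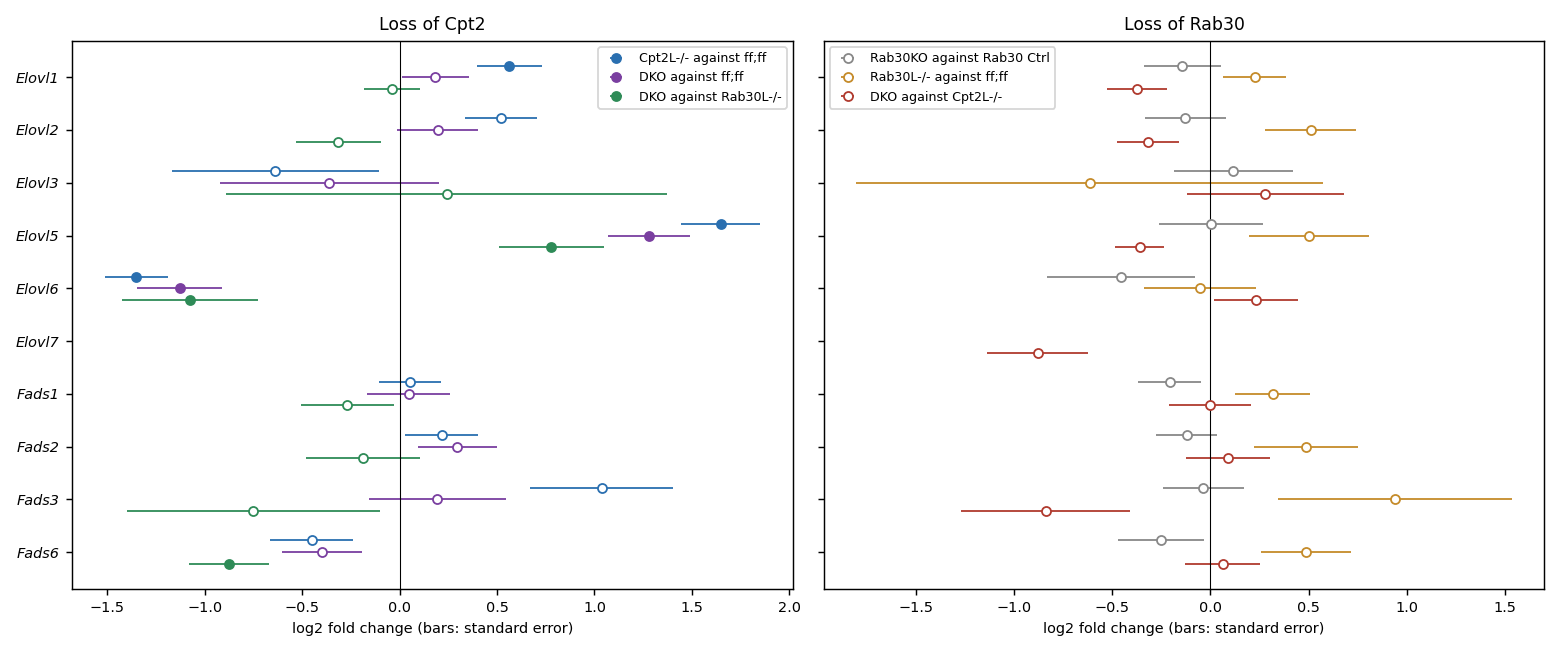
Log2 fold change of each member with its standard error, for 3 comparisons on the loss of Cpt2 (left, where DKO against ff;ff differs in both genes) and 3 on the loss of Rab30 (right). Filled circles passed an adjusted p of 0.05 with at least a 1.2-fold change and open circles did not, and Elovl7 is shown only for DKO against Cpt2L-/-. On the left Elovl5 and Elovl6 are filled in all 3 comparisons, on opposite sides of 0, and on the right no circle is filled.

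Elovl7, an elongase of saturated and monounsaturated chains, was almost absent without loss of Cpt2. Its raw counts were 6, 6, 1 and 5 in ff;ff, 0, 2, 7 and 2 in Rab30L-/-, 10, 5, 8 and 2 in Rab30 Ctrl, and 2, 0, 4 and 11 in Rab30KO. The Cpt2L-/- libraries held 299, 340, 415 and 312 counts and the DKO libraries 152, 96, 274 and 260. The highest of the 16 libraries of groups that keep Cpt2 was at 0.701 CPM and the lowest of the 8 of groups that lack it at 6.26 CPM. A count of 0 allows up to 3 counts, which is 0.229 CPM in Rab30L-/- replicate 1 and 0.231 CPM in Rab30KO replicate 2. Relative to library size, Elovl7 reads were 69.2 times as frequent in Cpt2L-/- as in ff;ff (1366 against 18 counts, 95% counting interval 43.6 to 117) and 38.2 times as frequent in DKO (782 counts, interval 24.0 to 64.8). Against the 11 counts of Rab30L-/-, the ratio in DKO was 67.9 (interval 37.8 to 137). These intervals cover counting error only, and because Elovl7 was picked for its low level in controls the ratios are a description. Even at its highest, 5.47 ± 0.857 FPKM in Cpt2L-/- (SD, n = 4), Elovl7 made up 0.870% of the summed elongase FPKM.

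Elovl1, which makes very long saturated chains in most cells, was at 21.5, 23.7, 18.6 and 28.6 CPM in ff;ff and 27.6, 40.8, 34.7 and 31.9 in Cpt2L-/-. The lowest Cpt2L-/- library lay below the highest ff;ff library. The log2 fold change was 0.56 (SE 0.17, edgeR adjusted p = 0.0267), and the call was lost without ff;ff replicate 2 or 3 or Cpt2L-/- replicate 2, 3 or 4 (adjusted p from 0.0550 to 0.101). In DKO livers Elovl1 was at 22.8, 23.5, 24.9 and 34.2 CPM, with log2 fold changes of 0.18 (SE 0.17) against ff;ff and -0.04 (SE 0.14) against Rab30L-/-.

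Elovl3, an elongase known for its circadian and androgen-dependent rhythm in male mouse liver, varied widely between livers of a group. It was at 87.1, 192, 40.9 and 50.5 CPM in ff;ff, 36.3, 41.3, 89.0 and 69.7 in Cpt2L-/-, and 59.9, 45.7, 51.1 and 136 in DKO. In Rab30L-/- 1 liver had 202 CPM and the others 16.5, 6.65 and 16.2. All of these groups overlapped. The log2 fold change was -0.64 (SE 0.53) in Cpt2L-/- against ff;ff and 0.24 (SE 1.13) in DKO against Rab30L-/-. Without Rab30L-/- replicate 1 the latter was 2.46 (edgeR adjusted p = 0.0125), and without DKO replicate 4 it was -0.21. Among male-biased genes other than Elovl3, 6 of 8 tested were lower in Cpt2L-/- than in ff;ff, beside 11.9% of all genes (median log2 fold change -1.44), including Cyp7b1 (-2.30), Mup20 (-1.81) and Slco1a1 (-1.59). Of 12 clock genes 7 were called there, 2 higher and 5 lower, beside 23.8% of all genes, among them Cry1 (-2.55), Nr1d1 (1.90) and Arntl (-1.31). In DKO against Rab30L-/- 2 male-biased genes were lower and 1 higher of 8, and 3 clock genes were lower and 0 higher of 12, beside 30.7% of all genes called. The part of either in the Elovl3 values was not tested.

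Fads3 lay at 7.31, 14.5, 18.1 and 14.9 CPM in ff;ff, and at 33.0, 38.2, 11.2 and 29.1 in Cpt2L-/-. Cpt2L-/- replicates 1, 2 and 4 were above all ff;ff libraries and replicate 3 was among them. The log2 fold change of 1.04 (SE 0.37) missed the threshold with an edgeR adjusted p of 0.0660, and was 1.29 without Cpt2L-/- replicate 3 (edgeR adjusted p = 0.00437). DESeq2 gave an adjusted p of 0.0143 and limma-voom 0.0402. In DKO livers it was at 14.4, 15.8, 25.0 and 7.77 CPM, inside the range of Rab30L-/- at 18.7, 7.71, 60.3 and 17.7.

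Fads6 was at 125, 153, 155 and 103 CPM in DKO and 164, 227, 319 and 264 in Rab30L-/-, with no overlap. Its log2 fold change of -0.88 (SE 0.21, edgeR adjusted p = 0.00824) held with each library left out, from -1.02 to -0.73. In ff;ff Fads6 was at 140, 160, 249 and 156 CPM and in Cpt2L-/- at 154, 145, 88.1 and 122. Those 2 groups overlapped, with a log2 fold change of -0.45 (SE 0.21, edgeR adjusted p = 0.150), and DKO against ff;ff gave -0.40 (SE 0.21, edgeR adjusted p = 0.223). Whether the fall of Fads6 differed between the backgrounds was tested by the interaction described below, which it did not pass.

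The make-up of the elongase RNA differed between groups. Elovl5 was 26.8% ± 0.815 of the summed FPKM of the 6 elongases in ff;ff, 29.7% ± 4.03 in Rab30L-/-, 48.0% ± 1.14 in Cpt2L-/- and 46.0% ± 4.15 in DKO (SD, n = 4 each). Elovl2 was 53.1% ± 9.02 in ff;ff and 42.5% ± 3.78 in Cpt2L-/-. Elovl6 was 1.31% ± 0.482 in ff;ff and 0.274% ± 0.0317 in Cpt2L-/-. Among the 4 desaturases, Fads1 kept a mean share of 20.9% to 26.0% in the 6 groups, or 27.4% to 32.8% with lengths from exonic bases. These shares follow from the levels above and were not tested on their own.

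**Figure D3:**
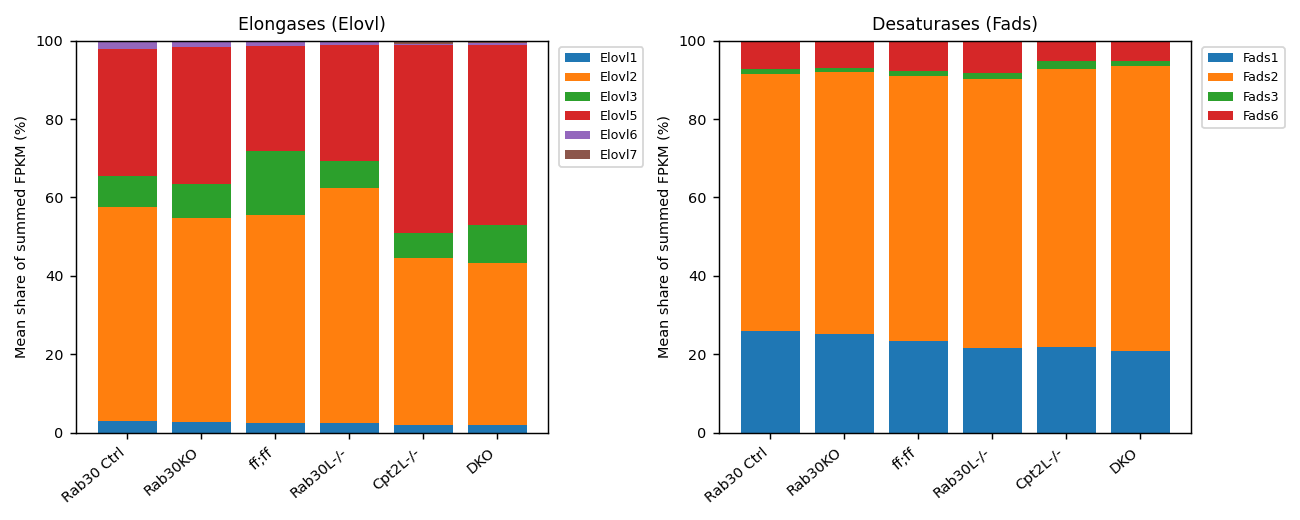
Mean share of each gene in the summed FPKM of the 6 elongases (left) and the 4 desaturases (right), in percent, for 6 groups of 4 livers. Elovl5 (red, left) takes 48.0% in Cpt2L-/- and 46.0% in DKO against 26.8% in ff;ff, while Fads1 stays between 20.9% and 26.0% of the desaturases.

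Loss of Rab30 was examined in the remaining comparisons. In the whole-body knockout 0 of 9 members were called by edgeR against Rab30 Ctrl, 0 had an unadjusted p under 0.05, and DESeq2 and limma-voom also called 0. Only 3 of 13656 genes were called there (0.022%), and 302 had an unadjusted p under 0.05. The absence of calls therefore does not set the members apart. Their log2 fold changes ran from -0.46 for Elovl6 (SE 0.38) to 0.12 for Elovl3 (SE 0.30), and all groups overlapped. Elovl5 was at 708, 304, 332 and 332 CPM in Rab30 Ctrl and 424, 345, 416 and 483 in Rab30KO, and Elovl6 at 45.3, 44.0, 66.9 and 24.3 against 28.9, 26.8, 17.8 and 57.6. With spreads of this size small differences were not detectable. In simulated counts for this comparison 27.0% of genes changed 2-fold were recovered.

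In Rab30L-/- against ff;ff edgeR called 0 of 9 members, with 1 (Elovl2) at an unadjusted p under 0.05, and DESeq2 and limma-voom called 0. Of all genes 0.479% were called (64 of 13367, 0.299% higher and 0.18% lower), and 1497 had an unadjusted p under 0.05. Elovl2 was at 1324, 878, 1238 and 716 CPM in Rab30L-/-, with a log2 fold change of 0.51 (SE 0.23, edgeR adjusted p = 0.442). Fads3 had the highest estimate, 0.94 (SE 0.59), which was 0.13 without Rab30L-/- replicate 3. Elovl3 had the lowest, -0.61 (SE 1.19), which was -2.81 without Rab30L-/- replicate 1. Fads2, at 394, 396, 826 and 328 CPM in Rab30L-/-, had a log2 fold change of 0.49 (SE 0.26), and of 0.12 without replicate 3.

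DKO against Cpt2L-/- is the one comparison in which Elovl7 was tested, because both groups lack Cpt2. EdgeR called 0 of 10 members, beside 2.71% of all genes called (360 of 13306, 1.38% higher and 1.33% lower). At an unadjusted p under 0.05 there were 3 members (Elovl7, Elovl5 and Elovl1), beside 2884 of the 13306 genes. DESeq2 called 2 (Elovl5 and Elovl7) and limma-voom 2 (Elovl1 and Elovl7). Elovl7 was at 19.1, 21.7, 26.5 and 19.3 CPM in Cpt2L-/- and at 10.6, 6.26, 17.9 and 12.7 in DKO. Every DKO library was below every Cpt2L-/- library, and the log2 fold change was -0.88 (SE 0.26, edgeR adjusted p = 0.0939). The adjusted p was 0.0211 with DESeq2 and 0.0139 with limma-voom, and ranged from 0.0245 to 0.191 when single libraries were left out of edgeR's fit, and was 0.260 in 1 fit of all 24 libraries. The lowest of these came without DKO replicate 3, with a log2 fold change of -1.16. Elovl5 did not overlap between the groups either and had a log2 fold change of -0.36 (SE 0.13, edgeR adjusted p = 0.133, DESeq2 0.0393). Elovl1 had -0.37 (SE 0.15, edgeR adjusted p = 0.183, limma-voom 0.0448). The summed hepatocyte markers were higher in every DKO than in every Cpt2L-/- library, but most of that sum was Alb. Mean Alb was 31484 CPM in Cpt2L-/- and 46468 in DKO, whereas Apoa1 was at 6908 and 4753. Of the 5 markers 0 were called, with log2 fold changes from -0.56 to 0.66. The part of these markers in the member values was not tested.

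The interaction tests whether the step from Cpt2L-/- to DKO differs from the step from ff;ff to Rab30L-/-. EdgeR called 0 of the 9 members other than Elovl7, as did DESeq2 and limma-voom, beside 4.06% of all genes (571 of 14063, 2.2% with a positive and 1.86% with a negative term). Beside 3056 of the 14063 genes, 4 members had an unadjusted p under 0.05, all negative. They were Elovl2 (-0.83, SE 0.29, edgeR adjusted p = 0.111), Elovl5 (-0.86, SE 0.35, edgeR adjusted p = 0.158), Elovl1 (-0.60, SE 0.22, edgeR adjusted p = 0.130) and Fads3 (-1.78, SE 0.80, edgeR adjusted p = 0.216). For Fads3 the term was -0.96 without Rab30L-/- replicate 3 (edgeR adjusted p = 0.429). Each had a positive log2 fold change in Rab30L-/- against ff;ff and a negative one in DKO against Cpt2L-/-. For Elovl5 the difference passed in 1 setting, without Rab30L-/- replicate 4 (-1.09, edgeR adjusted p = 0.0469). Only 11.0% of genes changed 2-fold were recovered in simulated counts for this test, so a difference of that size would often be missed.

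Beyond the members, 90 genes of related pathways were taken from lists, of which 81 were tested in Cpt2L-/- against ff;ff. There 42 were called, 22 higher and 20 lower, beside 23.8% of all genes. In DKO against Rab30L-/- 40 of 81 were called, 26 higher and 14 lower, beside 30.7% of all genes. In the Rab30 comparisons 1 (the clock gene Dbp) was called in Rab30L-/- against ff;ff, beside 0.479% of all genes, and 4 (Hacd2, Nr1h2, Cry1 and Nr1d1) in DKO against Cpt2L-/-, beside 2.71%. In Rab30KO against Rab30 Ctrl 0 were called, beside 0.022% of all genes, and 0 had an unadjusted p under 0.05 and DESeq2 and limma-voom called 0. The 1 of Rab30L-/- against ff;ff became 0 without Rab30L-/- replicate 4 or ff;ff replicate 2, 2 in 1 fit of 24 libraries or without ff;ff replicate 1, 3 with no filter or without Rab30L-/- replicate 1, and 4 with DESeq2 or limma-voom. The 4 of DKO against Cpt2L-/- became 0 without Cpt2L-/- replicate 4 or DKO replicate 2, 1 without Cpt2L-/- replicate 2 or 3 or DKO replicate 1, 10 with DESeq2 and 11 with limma-voom. The interaction was called for 5 of 82 (Hacd2, the Ppara target Pdk4 and the clock genes Dbp, Nr1d1 and Cry1), beside 4.06% of all genes, and for 12 with DESeq2 or without Rab30L-/- replicate 1 and 14 with limma-voom. Of the elongation cycle partners 3 of 6 were higher and 0 lower in Cpt2L-/- against ff;ff (median log2 fold change 0.44), and 4 of 6 were higher and 0 lower in DKO against Rab30L-/- (median 0.64). Background rates in 1 direction were 11.9% and 14.9% of genes higher. Hsd17b12, the ketoreductase, rose from 94.1 ± 22.5 CPM in ff;ff to 178 ± 14.9 in Cpt2L-/- and 200 ± 30.5 in DKO (SD, n = 4 each), with log2 fold changes of 0.93 (SE 0.17, edgeR adjusted p = 0.00149) and 1.08 (SE 0.19, edgeR adjusted p = 0.00227). The dehydratases Hacd1 (1.64) and Hacd3 (0.82) were higher in Cpt2L-/-. Hacd2 was at 0.05 there and at 0.80 in DKO against Rab30L-/-, where it passed. The enoyl reductase Tecr was at -0.12 and -0.17 in these comparisons and did not pass. Hacd4, at 1.33 ± 0.651 CPM in ff;ff, was at -0.08 (SE 0.41) and -0.69 (SE 0.40) and did not pass either. Hacd2 was also the one gene of this list that passed on loss of Rab30, at 47.0 ± 3.53 CPM in Cpt2L-/- and 71.0 ± 10.4 in DKO (SD, n = 4 each). Its log2 fold change there was 0.58 (SE 0.12, edgeR adjusted p = 0.0315). It was at 45.9 ± 4.49 CPM in ff;ff and 40.2 ± 6.76 in Rab30L-/-, and the interaction passed for it (0.75, SE 0.19, edgeR adjusted p = 0.0324).

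Docosahexaenoic acid synthesis ends with a shortening step in peroxisomes. Of 7 genes of that step 4 were higher and 0 lower in both comparisons, beside 11.9% and 14.9% of all genes higher, with a median log2 fold change of 0.56 in Cpt2L-/- against ff;ff and 0.55 in DKO against Rab30L-/-. They included the thiolase Acaa1b (2.22 and 2.39), the transporter Abcd3 (0.87 and 1.14) and the bifunctional enzyme Hsd17b4 (0.56 and 0.73). Acyl-CoA synthetases, which activate fatty acids for elongation, moved both ways, with 2 of 7 higher and 1 lower in Cpt2L-/- against ff;ff. In DKO against Rab30L-/- 4 of 7 were higher and 1 lower. Of all genes 11.9% and 15.8% were lower in these comparisons. Slc27a4 was higher (1.40 and 1.18), Slc27a5 was lower (-1.32 and -0.98) and Acsl1 was called in the second comparison (1.27) but not in the first (0.23). The difference between them, tested by the interaction, did not pass (1.05, SE 0.41, edgeR adjusted p = 0.144). Lpcat3, which places polyunsaturated chains into phospholipids, was higher (0.70 and 0.72). It was the one called of 6 tested genes of that list in Cpt2L-/- against ff;ff, beside 23.8% of all genes. In DKO against Rab30L-/- 2 of 6 were called, beside 30.7% of all genes.

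The Srebp1 list holds lipogenic enzymes that are regulated with Elovl6. In Cpt2L-/- against ff;ff 6 of 8 tested were lower and 1 higher (median -0.91), beside 11.9% of all genes in each direction. In DKO against Rab30L-/- 4 of 8 were lower, 1 was higher and 3 did not pass (median -0.59), beside 15.8% of all genes lower and 14.9% higher. Thrsp (-2.78 and -2.64) and Srebf1 itself (-1.02 and -0.75) were lower in both. Fasn, the fatty acid synthase, was lower in the first (-1.28) and did not pass in the second (-0.20). Malic enzyme Me1 was the exception in both (1.25 and 1.97). Scd1, the delta-9 desaturase that acts after Elovl6, spread from 784 to 1800 CPM in ff;ff and from 117 to 851 in Cpt2L-/-, and its log2 fold change of -1.42 (SE 0.66, edgeR adjusted p = 0.167) did not pass. In DKO against Rab30L-/- it was -0.20 (SE 0.40), while its paralogue Scd2 was lower (-1.06, SE 0.24, edgeR adjusted p = 0.00679) after -0.12 (SE 0.26) in the first comparison. Elovl4 had at most 1 count in a library and was not tested. The electron donor reductase Cyb5r3 was lower in both (-0.50 and -0.60), while Cyb5a did not pass.

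**Figure D4:**
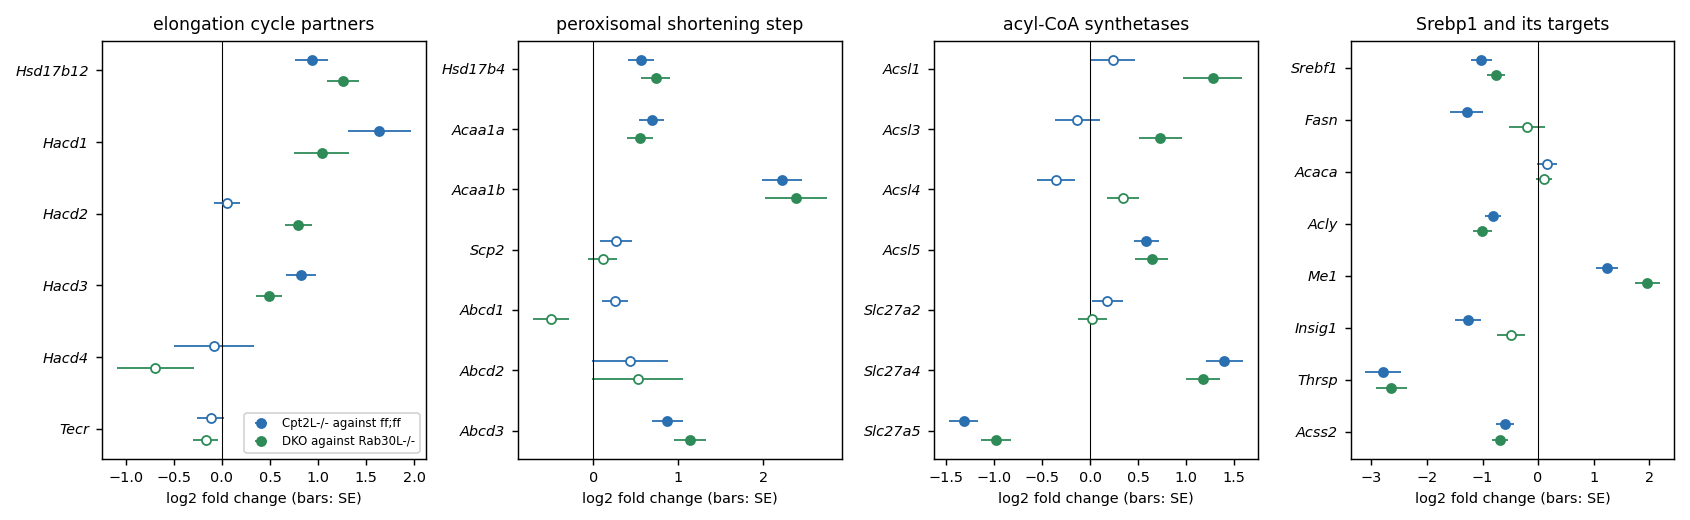
Log2 fold change with its standard error for genes of 4 lists in Cpt2L-/- against ff;ff (blue) and DKO against Rab30L-/- (green), which share no library. Filled circles passed the test. Filled circles of the elongation cycle and peroxisomal lists lie to the right of 0, those of the Srebp1 list lie to the left apart from Me1, and the acyl-CoA synthetases lie on both sides.

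Targets of Ppara, the nuclear receptor that drives the fasting response and that also responds to polyunsaturated fatty acids, were higher for 8 of 14 genes in Cpt2L-/- against ff;ff and 9 of 14 in DKO against Rab30L-/-, with 0 lower in either (median 1.05 and 1.62). Of all genes 11.9% and 14.9% were higher in these comparisons. Pdk4 (3.83 and 6.83), Ehhadh (3.29 and 3.23) and Acot1 (2.85 and 3.21) had the largest changes of this list. For Pdk4 the interaction passed (3.01, SE 0.54, edgeR adjusted p = 0.00677). Among the receptors and sensors themselves Pparg was higher (1.39 and 2.12) and Mlxipl lower (-0.67 and -0.97), while Ppara did not pass (0.73, SE 0.27, edgeR adjusted p = 0.0691, and 0.54, SE 0.25).

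The genes whose log2 CPM followed each member most closely over the 24 libraries were found among 12639 protein-coding genes, as a description of libraries that share groups and depth. Elovl5 was most like Gk, glycerol kinase (Pearson r = 0.941), and the elongation dehydratase Hacd3 (r = 0.932). With each group centred on its own mean these were 0.917 and 0.755. Elovl7 was most like Sema3b (r = 0.975) and Tubb2b (r = 0.972), but centred by group the values were 0.342 and 0.429, so the likeness lay mostly between groups. Fads6 was most like Masp2 (r = 0.900) and Onecut1 (r = 0.880), and Elovl6 most like Zfp326 (r = 0.865) and Suox (r = 0.861). Elovl3 was most like Pitx3 (r = 0.788), a neighbour on the opposite strand with which it shares 10 exonic bases, so that these counts may share reads. The highest values for the remaining members were 0.831 for Elovl1 (Parp3), 0.792 for Fads3 (Gart), 0.787 for Elovl2 (Tspan31), 0.725 for Fads1 (Tnfrsf19) and 0.717 for Fads2 (Dchs1). Among the members, the desaturase neighbours Fads2 and Fads3 had r = 0.672, and 0.748 when centred by group.

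Elovl2 and Elovl5 had r = 0.836 over the 24 libraries when each group was centred on its own mean and 0.690 without centring. In Rab30L-/- livers the order was the same for both genes at the ends, with replicate 1 the highest (1324 and 693 CPM) and replicate 4 the lowest (716 and 234 CPM). In Rab30 Ctrl, replicate 1 was the highest for both (1092 and 708 CPM). Cpt2L-/- livers did not share this order, since replicate 1 had the highest Elovl2 (1136 CPM) and the lowest Elovl5 (1002 CPM). Between groups they parted, since Cpt2L-/- livers had more Elovl5 than any other liver while Elovl2 was higher in 2 Rab30L-/- livers than in any Cpt2L-/- liver. Elovl3 and Fads6 ran in opposite directions within groups (r = -0.632).

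**Figure D5:**
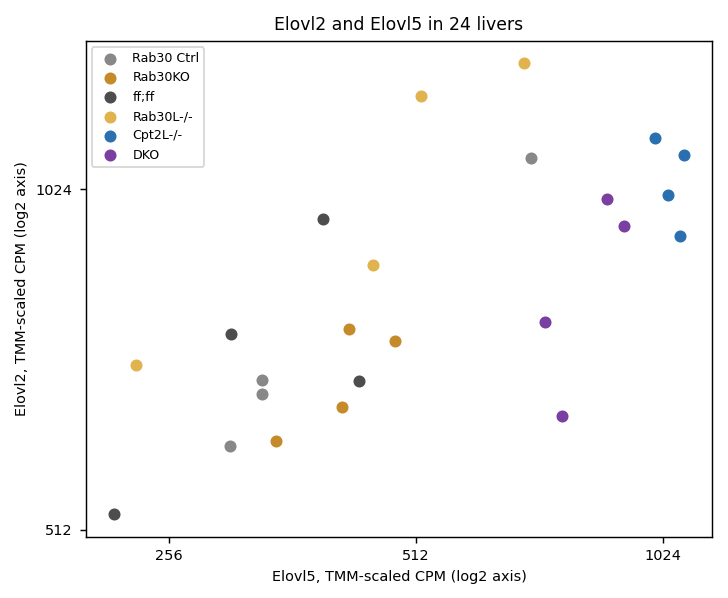
Elovl2 against Elovl5 in 24 livers, both in CPM after TMM scaling on log2 axes, coloured by group. With groups centred the 2 genes had r = 0.836, though in Cpt2L-/- the liver with the most Elovl2 has the least Elovl5. Every Cpt2L-/- and DKO liver lies to the right of the others.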

How the data were processed

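Libraries of 24 livers were analysed from the deposited counts, whole numbers of reads per gene that the authors had not normalized. The authors also deposited FPKM values. These equalled the count divided by gene length and by a library total that was 0.851 to 1.14 times the summed counts. HISAT2, DESeq2, GRCm38 and mm10 are named in the submitters' processing notes, whereas the counter, the annotation and strand use are not given in the sources used here. Gene coordinates in the table were the same as in GENCODE M21 for 53462 of 54532 genes (98.0%). Tables of the authors' pairwise comparisons (log2 fold changes, p-values) and of their normalized values were not used. Each column was matched to 1 sample by its label, and replicates were numbered in accession order. Every pair of libraries of a group differed by more than counting noise. Replicates are separate livers, so the tests weigh a difference against the spread between animals of a group. Where groups come from different litters, litter and genotype cannot be told apart.

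Genes were kept by filterByExpr, scaled by TMM and tested with edgeR 4.0.16 (glmQLFit with robust estimation, glmQLFTest, R 4.3.3) on the 8 libraries of each comparison, or 16 for the interaction. P-values were adjusted over all genes tested (Benjamini-Hochberg), and a call needed both a change of 1.2-fold or more and an adjusted p below 0.05. CPM values in the text use TMM over all 24 libraries, and correlations use log2 CPM with an offset of 0.5 CPM. Alternatives were DESeq2 1.42.0 (size factors, Wald test), limma-voom (limma 3.58.1) with sample quality weights, no filter beyond 1 count in total, a minimum of 10 counts per library, adjusted p alone, 1 fit over 24 libraries, and each library left out. Each edgeR fit was tested on simulated data with 2-fold changes in 200 genes.

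The members, lists and tests were chosen with earlier results of these data known. Among the listed genes 1 is not reported here and was left out of the counts. The text names all members, at most 3 called genes of each list by size of change, the 2 genes most like each member, Rab30 and Cpt2, and genes set beside a member for a stated reason. The genes Hacd2, Tecr, Acsl1, Lpcat3, Cyb5a, Cyb5r3, Fasn, Me1, Scd1, Scd2, Ppara, Mlxipl and Nr1h2 were named after their values were seen. Promoter windows came from RefSeq on GRCm38.p6. Intervals and floors of 3 counts cover counting error only, because they leave out the spread between livers. They are of reads and not of molecules.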

Additional observations from a re-analysis of the deposited data

Results flagged for a closer look

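In each group of 4 livers the highest and lowest library was compared with the others, gene by gene, by the gap to its neighbour over the whole range. Of 60 gene and group pairs 5 had a library that stood apart, where chance gives about 1 in 20 (3.0). Elovl3 was at 135.9 CPM in DKO replicate 4 against 45.7 to 59.9 in the other DKO livers, and at 202.3 CPM in Rab30L-/- replicate 1 against 6.65 to 16.5. Elovl5 was at 707.5 CPM in Rab30 Ctrl replicate 1 against 303.6 to 332.3. Rab30L-/- replicate 3, the deepest library, stood apart for Elovl6 at 48.54 CPM against 18.9 to 20.9 and for Fads2 at 825.7 CPM against 327.7 to 396.3. No member passed the test of the interaction of Rab30 loss with Cpt2 loss.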

How the results depend on the processing

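No paired analysis was possible because the labels give animal numbers that differ between groups, and although ff;ff mice are called littermates of DKO mice they do not say which animals share a litter. Under all alternatives, member fold changes kept direction and side of the threshold 948 times, newly passed 14 times, lost a call 18 times and changed sign 52 times. The cause was not tested.

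All genes called in DKO against Cpt2L-/- (360) were 1032 with DESeq2, 1534 with limma-voom, 705 with no filter and 114 in 1 fit of 24 libraries. The same settings gave 298, 236 and 240 for Rab30L-/- against ff;ff (64) with the first 3, and 25 with at least 10 counts in every library. For Rab30KO against Rab30 Ctrl (3) DESeq2 gave 10, no filter 6, the count minimum 0 and the fit of 24 libraries 9. The interaction (571) gave 1080 with DESeq2, 1268 with limma-voom and 374 in the fit of 24 libraries, and DKO against ff;ff (2157) 3739 with limma-voom. Leaving out single libraries moved these counts between 57 and 445, 23 and 93, 0 and 4, 300 and 679, and 1485 and 2675 in that order. The lowest came without Cpt2L-/- replicate 4 (57, and 300 for the interaction), Rab30L-/- replicate 4 (23), either of Rab30 Ctrl replicates 1 and 2 or Rab30KO replicate 1 (0), and DKO replicate 1 (1485).

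Members called were 5 with DESeq2 and limma-voom and 4 with no filter in Cpt2L-/- against ff;ff (3), 2 with DESeq2 and 2 with limma-voom in DKO against Cpt2L-/- (0), and 1 with no filter in DKO against Rab30L-/- (3). Single libraries left out gave 2 to 4, 0 to 1 and 1 to 4 there, and 0 to 1 for the interaction (0). In DKO against ff;ff the count was 2 in every setting.

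No called member changed direction. Uncalled members that did were Fads1 in DKO against ff;ff (-0.14) and Elovl2 (0.0017) and Fads2 (0.17) in DKO against Rab30L-/- with limma-voom, Fads1 in DKO against Cpt2L-/- with DESeq2's size factors (0.0025) and test (0.0026), and Elovl5 in Rab30KO against Rab30 Ctrl with no filter (-0.0055) or the count minimum (-0.0026).
With single libraries left out the log2 fold change crossed 0 in DKO against Rab30L-/- (Elovl1 -0.16 to 0.034, Elovl3 -0.21 to 2.46, Fads2 -0.33 to 0.18, Fads3 -1.07 to 0.069), Rab30KO against Rab30 Ctrl (Elovl1 -0.27 to 0.019, Elovl2 -0.23 to 0.10, Elovl3 -0.088 to 0.31, Elovl5 -0.13 to 0.39, Fads3 -0.13 to 0.18), Cpt2L-/- against ff;ff (Elovl3 -0.91 to 0.0085, Fads1 -0.048 to 0.13), DKO against Cpt2L-/- (Elovl3 -0.17 to 0.54, Fads1 -0.26 to 0.11, Fads2 -0.035 to 0.26, Fads6 -0.080 to 0.19), DKO against ff;ff (Elovl3 -0.82 to 0.29, Fads1 -0.20 to 0.16, Fads3 -0.13 to 0.43) and Rab30L-/- against ff;ff (Elovl3 -2.81 to 0.042, Elovl6 -0.49 to 0.078).
With exonic bases in place of the deposited gene lengths, an alternative chosen after seeing the data, the ff;ff level moved to 106.1 FPKM for Fads2 and 56.61 for Fads1, and by less than 1 SD for Elovl3 and Fads3.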
